A study of Mus musculus with 10 samples.

Results

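Phase II conjugation enzymes attach a polar group to drugs, toxins, hormones and bilirubin so that they can leave the cell and the body. The genes described here were found by symbol: every deposited row whose name starts with Gsta, Gstm, Gstp, Gstt, Gsto, Gstk, Mgst, Ugt1, Ugt2, Ugt3 or Sult, with Gstz1 left out. The rule found 48 genes among 14812 gene entries. They comprised 19 cytosolic or mitochondrial glutathione S-transferases (GSTs), 3 membrane-bound ones (MGSTs), 17 UDP-glucuronosyltransferases (UGTs) and 9 sulfotransferases (SULTs).

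GSTs join glutathione to electrophiles, UGTs join sugars such as glucuronic acid from UDP-sugars, and SULTs join sulfate from the donor PAPS. The liver is a main site of all these reactions. Blood enters each liver lobule at the portal tract and drains at the central vein, and hepatocytes along this path express different genes, a pattern called zonation; many drug-metabolising enzymes are known as pericentral.

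The study profiled single hepatocytes of C57BL/6 male mice, aged 3 months and fed regular chow ad libitum, at 4 zeitgeber times (ZT, hours after lights on) 6 h apart. There were 3 libraries at ZT0 and at ZT12 (A, B and C) and 2 at ZT6 and at ZT18 (A and B). All mice were anaesthetised with ketamine and xylazine, and hepatocytes were isolated by collagenase perfusion and a Percoll gradient. The labels name no other treatment and no transgene. How many mice went into a library is not stated in the labels, so p-values measure the spread between these libraries, which may in part be technical.

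The 10 libraries held 18378 cells in all, with 1454623 to 7144803 UMIs (unique molecular identifiers, each counting 1 captured RNA molecule) per library. Summed hepatocyte markers lay between 34850 and 67290 CPM (a gene's UMIs relative to the library total, scaled to the same sum in every library), and markers of other liver cells were low. The summed endothelial list lay between 2.75 and 14.5 CPM over the libraries, mostly from Pecam1 and Stab2 with Clec4g at 0, the macrophage list between 0 and 8.55 CPM, mostly from Lyz2 and Cd5l with Clec4f and Csf1r at 0, and the lymphocyte list at no more than 0.61 CPM, from Ptprc, with Cd3e, Cd79a and Nkg7 at 0. The ZT18 A library, labelled male, held 36.8 CPM of Xist, an RNA made from the inactive X chromosome of females, against at most 0.169 CPM in the others. The ZT18 B library stood apart in globin RNA, with 142 CPM of Hbb-bs. The 10x index names place both ZT18 libraries, and no other, in index column 4, so ZT18 and that column cannot be told apart; leaving out ZT18 A, or both ZT18 libraries, left 23 members called between zones and 0 in each test of time that could still be made, as with all 10. The deposited tables give no cell barcodes, so barcodes shared between libraries could not be counted.

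Position along the lobule was rebuilt from RNA. In each library cells were ordered by the mean level of 8 periportal landmark genes minus that of 7 pericentral ones, none of them a conjugation enzyme, and the first and the last of 3 equal parts of the order are called the pericentral and the periportal zone. Scores from the odd-numbered and even-numbered landmarks correlated across cells at r = 0.675 to 0.831 within libraries, which share depth per cell. Zone differences are given as log2 periportal minus pericentral, so a negative value means higher near the central vein.

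Promoter sequences of 7 members are shown first, because neighbouring genes of the same cluster had very different zonation. Each is the 250 bases before the RefSeq start site in GRCm38.p6, written 5′ to 3′ in the direction of the gene, with matches to a searched motif in capitals; where RefSeq gives several start sites, 1 window is shown. The first 5 come from the Gstm cluster, of which Gstm2, Gstm3 and Gstm6 had the steepest pericentral gradients and Gstm5 and Gstm7 had none that passed the test.

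Gstm2 (chr3:107986421-107986670, minus strand): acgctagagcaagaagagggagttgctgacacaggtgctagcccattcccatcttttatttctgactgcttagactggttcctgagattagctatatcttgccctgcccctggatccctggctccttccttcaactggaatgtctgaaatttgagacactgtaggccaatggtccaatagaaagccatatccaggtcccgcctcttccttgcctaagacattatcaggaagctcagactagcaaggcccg
Gstm3 (chr3:107969175-107969424, minus strand): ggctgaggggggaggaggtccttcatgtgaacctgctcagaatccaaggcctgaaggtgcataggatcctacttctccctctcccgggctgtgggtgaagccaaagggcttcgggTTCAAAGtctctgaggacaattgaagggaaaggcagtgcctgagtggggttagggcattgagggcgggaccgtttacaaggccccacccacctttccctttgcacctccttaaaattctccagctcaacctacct
Gstm6 (chr3:107943735-107943984, minus strand): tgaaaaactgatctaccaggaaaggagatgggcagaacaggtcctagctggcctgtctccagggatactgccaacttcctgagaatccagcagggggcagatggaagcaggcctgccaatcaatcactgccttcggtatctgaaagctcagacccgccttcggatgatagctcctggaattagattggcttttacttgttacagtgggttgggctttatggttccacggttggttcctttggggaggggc
Gstm5 (chr3:107895604-107895853, plus strand): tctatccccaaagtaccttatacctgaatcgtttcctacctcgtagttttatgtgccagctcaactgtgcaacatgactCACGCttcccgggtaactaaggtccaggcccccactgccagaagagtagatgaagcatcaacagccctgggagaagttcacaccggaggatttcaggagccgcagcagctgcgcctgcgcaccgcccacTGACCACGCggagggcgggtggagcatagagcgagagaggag
Gstm7 (chr3:107931615-107931864, minus strand): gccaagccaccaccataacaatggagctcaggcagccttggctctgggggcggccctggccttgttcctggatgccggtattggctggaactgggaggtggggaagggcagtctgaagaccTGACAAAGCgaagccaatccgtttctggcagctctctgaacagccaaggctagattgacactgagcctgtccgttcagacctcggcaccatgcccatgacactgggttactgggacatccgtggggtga

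The next 2 come from the Ugt2 cluster: Ugt2b1 was pericentral and Ugt2b38 periportal.

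Ugt2b1 (chr5:86926504-86926753, minus strand): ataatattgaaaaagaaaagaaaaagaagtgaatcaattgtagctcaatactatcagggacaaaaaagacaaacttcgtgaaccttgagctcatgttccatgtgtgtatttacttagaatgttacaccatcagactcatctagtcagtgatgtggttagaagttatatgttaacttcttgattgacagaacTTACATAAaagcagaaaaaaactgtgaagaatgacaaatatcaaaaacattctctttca
Ugt2b38 (chr5:87424204-87424453, minus strand): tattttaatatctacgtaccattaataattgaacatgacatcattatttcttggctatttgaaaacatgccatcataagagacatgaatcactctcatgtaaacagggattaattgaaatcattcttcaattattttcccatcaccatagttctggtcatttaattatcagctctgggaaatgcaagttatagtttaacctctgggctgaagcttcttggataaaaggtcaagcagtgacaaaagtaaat

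A set of 6 motifs was searched on both strands in these windows: the antioxidant response element (TGACNNNGC), the E-box (CACGTG), the D-box (TTATGTAA or TTACGTAA), the TCF/LEF motif (CTTTGAT or CTTTGAA), an HNF1 motif (GTTAATNA) and the dioxin response core (GCGTG). RefSeq promoters were matched for 42 of the 48 members, giving 52 windows. The capitals above mark a TCF/LEF match 135 bases before the start of Gstm3, an antioxidant response element match in Gstm5 and in Gstm7, 2 dioxin response cores in Gstm5, of which 1 overlaps the antioxidant response element match, and a D-box in Ugt2b1. The windows shown for Gstm2, Gstm6 and Ugt2b38 held none of the 6 motifs. In the GENCODE M21 annotation Gstm7 starts at chr3:107931817, so most of its window shown above, with the match, lies inside the gene. The other Gstm7 window (chr3:107931818-107932067, minus strand) lies before that start and held none of the 6 motifs. Over all members, TCF/LEF letters were in 11.5% of windows against 7.48% of all 32851 promoters, antioxidant response element letters in 7.69% against 10.2%, D-box letters in 1.92% against 0.932%, HNF1 letters in 9.62% against 2.33% and dioxin response cores in 17.3% against 28.2%. E-box letters were in no member window, against 6.02% of all promoters. A match describes these letters and is not evidence of binding.

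All 48 members together took up 12047 ± 1464 CPM (SD, n = 10 libraries), or about 1.2% of all UMIs. MGSTs made up 4827 CPM of this, other GSTs 3721, UGTs 2293 and SULTs 1206. The kit counts molecules by their 3′ end, so levels can be compared between genes without a length correction. The 5 members with the highest mean level, Mgst1, Gstm1, Gsta3, Sult2a8 and Ugt2b5, held 74.8% of the summed level.

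Mgst1, the microsomal GST of the endoplasmic reticulum and outer mitochondrial membrane, was the most abundant member, with 7022, 3376 and 6621 CPM in the ZT0 libraries A to C, 3786 and 4079.7 in those of ZT6, 4944, 3854 and 5878 in those of ZT12, and 4271 and 4361 in those of ZT18. Gstm1, a mu-class cytosolic GST, was at 1107, 1785 and 1485 CPM in the ZT0 libraries A to C, 2236 and 2151 in those of ZT6, 1266, 1773 and 1366 in those of ZT12, and 1793 and 1487 in those of ZT18. Gsta3, an alpha-class GST, was at 1493, 1125 and 1722 CPM in the ZT0 libraries A to C, 830.3 and 1111 in those of ZT6, 1248, 921 and 1082 in those of ZT12, and 1366 and 1399 in those of ZT18. Mgst1 was highest in ZT0 A and C yet lowest of all in ZT0 B, so the spread within ZT0 covered the other 3 times, while both ZT6 libraries were the highest for Gstm1.

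Sult2a8, a sulfotransferase of bile acids in mouse liver, was at 793, 754 and 750.2 CPM in the ZT0 libraries A to C, 903 and 860.4 in those of ZT6, 1339.9, 771 and 858 in those of ZT12, and 878 and 865 in those of ZT18. Ugt2b5, a glucuronosyltransferase of the steroid-conjugating 2B group, was at 404, 316 and 505 CPM in the ZT0 libraries A to C, 328 and 378 in those of ZT6, 501, 600.4 and 451 in those of ZT12, and 480.0 and 462 in those of ZT18. ZT12 A stood above all the rest for Sult2a8, and ZT12 B for Ugt2b5.

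Of the 48 members, 35 passed the filter (mean CPM of 3 or more) and 13 did not. The 13 were all 7 Ugt1a genes, Gsto2, Mgst2, Sult1c2, Sult1e1, Sult2a7 and Sult4a1, and Mgst2 alone had no UMI in any library, which allows a level of up to 0.0692 CPM over all libraries (3 counts of the total, counting error only). Ugt1a1, the enzyme that conjugates bilirubin, was at 0.524 to 4.25 CPM. These low values are uncertain: 5 of the 7 Ugt1a genes end at the same base, chr1:88218997 in the GENCODE M21 annotation of GRCm38, and a 3′ read there cannot be given to 1 of them. Gstp1 and Gstp2 are likewise identical over their last 300 bases, Gsta1 and Gsta2 are 94.3% identical and Ugt2b37 and Ugt2b38 87.3%, so the split between those partners is uncertain too.

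Conjugation enzymes were strongly zonated, mostly towards the central vein. Summed over all 48, they reached 15908 ± 2076 CPM (SD, n = 10) in the pericentral zone against 8821 ± 860.3 CPM in the periportal zone, and the ratio lay between 1.64 and 2.13 in the 10 libraries. The summed level was higher in the pericentral zone in 10 of 10 libraries for each class: on average 2.01-fold for GSTs, 1.89-fold for MGSTs, 1.72-fold for SULTs and 1.45-fold for UGTs. These sums mostly follow the most abundant genes. In the pericentral zone Mgst1 held 6528 of 6535 CPM of the MGSTs, and Gstm1 and Gsta3 held 2308 and 1693 of 5048 CPM of the GSTs. Of 18 tested GSTs, 8 were pericentral, 1 periportal and 9 not called, with a median difference of -0.15.

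Gene by gene, 23 of the 35 tested members differed between the zones (65.7%; edgeR quasi-likelihood test with library as a block, Benjamini-Hochberg adjusted p under 0.05), where 24.7% of all 8902 genes tested did. Higher in the pericentral zone were 18 members (13.1% of all genes were called in that direction) and higher in the periportal zone 5 (11.5% of all genes). The median difference was -0.32 over the tested members and -0.01 over all genes. The zones differed in the same direction in all 10 libraries for 21 of the 23. In 8 of the 23 the 10 pericentral values did not overlap the 10 periportal ones. The 23 were called from these same libraries and zones, so these counts describe the calls and are not a separate test. Matching counts over all genes were not made, so whether members stand out in them was not tested. The share of mitochondrially encoded UMIs moved with the zone: its median was 10.98 to 23.6% in pericentral and 13.3 to 25.8% in periportal zones and was higher periportally in 10 of 10 libraries; its part in these results was not tested. Median UMIs per cell were higher in the pericentral zone in 3 of the 10 libraries.

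**Figure D1:**
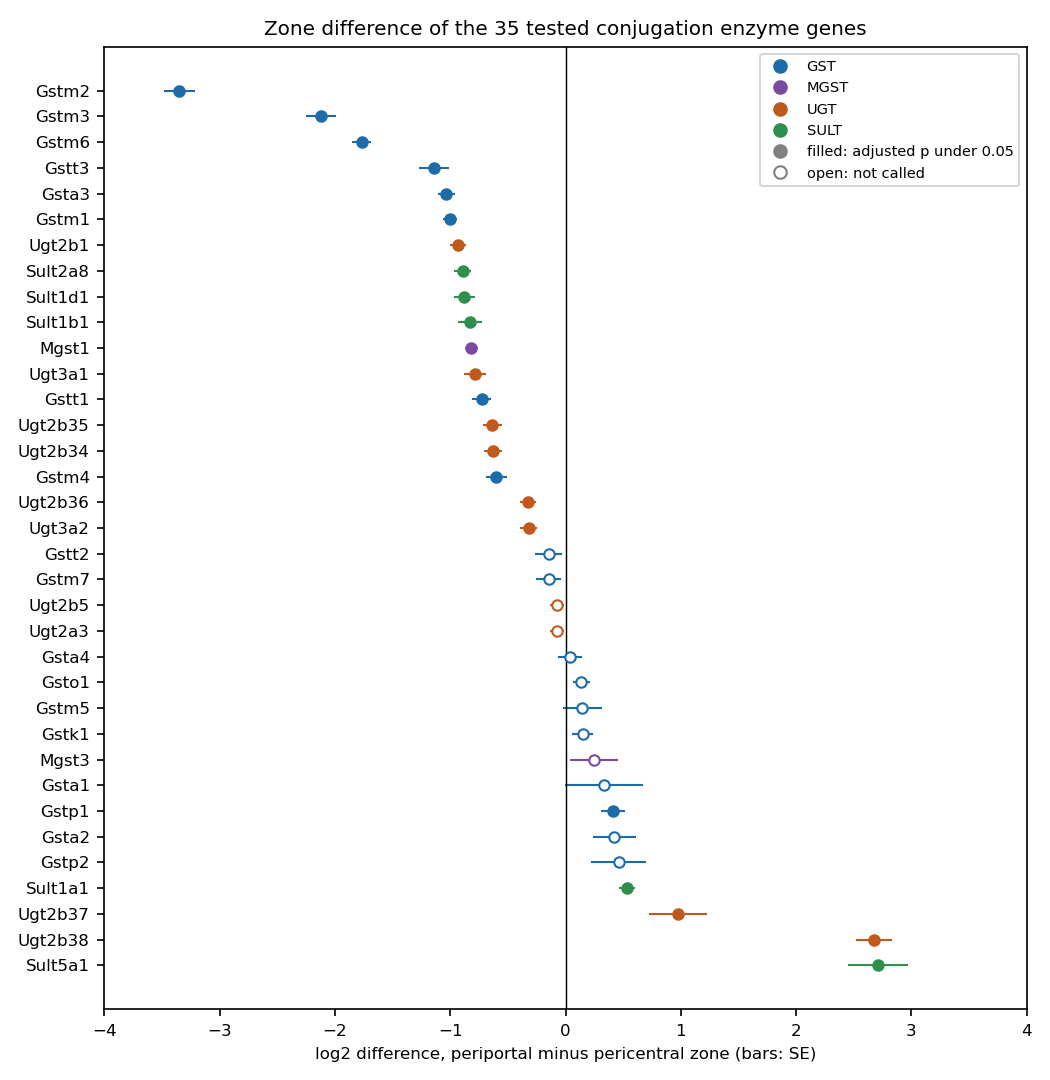
Log2 difference (periportal minus pericentral zone, with SE) of the 35 tested members, coloured by class, filled where the adjusted p was under 0.05. Gstm2 stands at -3.35 and Sult5a1 at 2.71, with 18 filled points on the pericentral and 5 on the periportal side.

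The GST mu class held the steepest pericentral gradients. Gstm2 (chr3:107981702-107986453, minus strand) had a lowest, median and highest level of 36.3, 89.8 and 167 CPM in the pericentral zones of the 10 libraries, against 1.52, 7.78 and 14.2 CPM in the periportal zones. Its difference was -3.35 ± 0.14 (SE; edgeR adjusted p = 1.21e-19), the largest of all members, and every pericentral value exceeded every periportal one. Gstm3 (chr3:107963696-107969283, minus strand) had a lowest, median and highest level of 31.7, 88.3 and 119 CPM in the pericentral zones of the 10 libraries, against 10.6, 15.1 and 24.2 CPM in the periportal zones, again without overlap, and differed by -2.12 ± 0.13 (SE; edgeR adjusted p = 1.29e-14).

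Gstm6 (chr3:107938847-107943749, minus strand) had a lowest, median and highest level of 108, 172 and 229 CPM in the pericentral zones of the 10 libraries, against 34.3, 43.4 and 52.3 CPM in the periportal zones. It differed by -1.77 ± 0.08 (SE; edgeR adjusted p = 2.32e-18), and the zones did not overlap. The abundant Gstm1 (chr3:108012255-108017973, minus strand) had a lowest, median and highest level of 1585, 2333 and 2965 CPM in the pericentral zones of the 10 libraries, against 724, 1082 and 1626 CPM in the periportal zones; it was higher pericentrally in 10 of 10 libraries, by -1.005 ± 0.06 (SE; edgeR adjusted p = 5.22e-15), with some overlap between libraries.

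All 7 Gstm genes lie within 149.1 kb on chromosome 3, and their zone differences varied along their order there. From Gstm5 and Gstm7 at one end, at 0.15 ± 0.17 and -0.14 ± 0.11 and not called, the difference grew through Gstm6 and Gstm3 to Gstm2, then shrank through Gstm1 to Gstm4, which differed by -0.60 ± 0.09 (SE; edgeR adjusted p = 4.07e-06). Their last 300 bases are at most 59.7% identical.

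**Figure D2:**
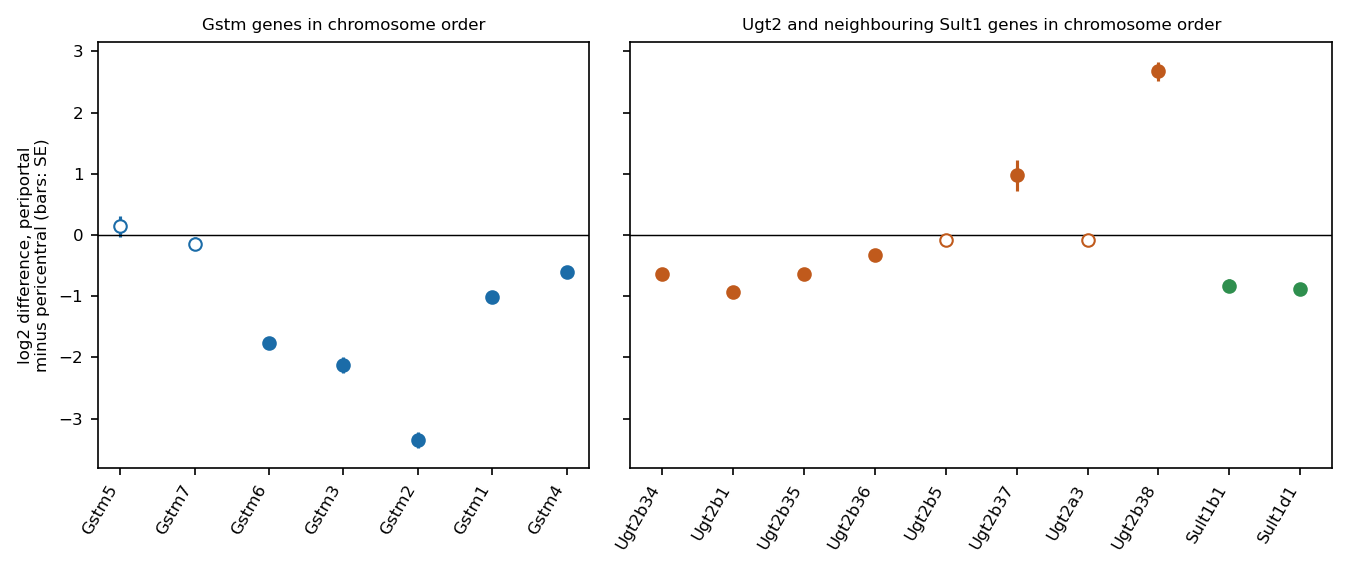
Zone difference (log2 periportal minus pericentral, with SE) of the 7 Gstm genes and of the 8 Ugt2 genes with Sult1b1 and Sult1d1. Only members are shown, each in chromosome order and not to distance, filled where the adjusted p was under 0.05. Gstm2 has the lowest value at -3.35 between shallower neighbours, and Ugt2b38 the highest at 2.68.

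Other GST classes had smaller differences than Gstm2, Gstm3 and Gstm6. Gsta3 (chr1:21240589-21265661, plus strand) had a lowest, median and highest level of 1171, 1655 and 2210.1 CPM in the pericentral zones of the 10 libraries, against 479.6, 775 and 1074 CPM in the periportal zones. It differed by -1.03 ± 0.07 (SE; edgeR adjusted p = 4.63e-13) with no overlap, while the other alpha-class genes Gsta1, Gsta2 and Gsta4 were not called (0.33 ± 0.34, 0.42 ± 0.19 and 0.04 ± 0.11). Of the theta class, Gstt3 (chr10:75774115-75781414, minus strand) had a lowest, median and highest level of 18.1, 56.8 and 95.7 CPM in the pericentral zones of the 10 libraries, against 10.4, 22.6 and 38.6 CPM in the periportal zones; the zones overlapped between libraries but Gstt3 was pericentral within 10 of 10, by -1.14 ± 0.13 (SE; edgeR adjusted p = 1.08e-08). Gstt1 differed by -0.73 ± 0.08 (SE; edgeR adjusted p = 9.62e-09), and Gstt2 of the same class was not called at -0.15 ± 0.12.

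Mgst1 differed by -0.82 ± 0.06 (SE; edgeR adjusted p = 1.67e-13): it was at 4552 to 9360 CPM in pericentral and 2451 to 5257 CPM in periportal zones. Mgst1 was kept out of the landmark score that ordered the cells. Mgst3, Gstk1 of mitochondria and peroxisomes, and Gsto1, an omega-class thiol transferase, were not called, at 0.25 ± 0.21, 0.15 ± 0.09 and 0.14 ± 0.07.

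Gstp1, the pi-class GST, was one of the 5 periportal calls, by 0.41 ± 0.11 (SE; edgeR adjusted p = 0.00362), with higher periportal levels in 8 of 10 libraries. Across 8 equal layers its mean level was lowest in layer 1, at 121 CPM, highest in layer 5, at 213 CPM, and 163 CPM in layer 8. Its call was lost when the 5% of cells with the most UMIs were left out (0.30, adjusted p = 0.0517 by edgeR). Without ZT6 B, with 176 CPM in its pericentral and 466 CPM in its periportal zone, the difference was 0.25 (adjusted p = 0.0188 by edgeR). Gstp2, identical to it over the last 300 bases, was not called at 0.46 ± 0.24.

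The UGTs split in direction. Ugt2b1 (chr5:86916638-86926530, minus strand), a glucuronosyltransferase of drugs and steroids, had a lowest, median and highest level of 371, 531 and 802 CPM in the pericentral zones of the 10 libraries, against 199.7, 266 and 355 CPM in the periportal zones. It differed by -0.93 ± 0.07 (SE; edgeR adjusted p = 1.25e-12) with no overlap. Ugt2b34, Ugt2b35 and Ugt2b36 were also pericentral, at -0.63 ± 0.08, -0.63 ± 0.08 and -0.33 ± 0.07, as were both Ugt3 genes, whose products use other sugars than glucuronic acid: Ugt3a1 at -0.79 ± 0.09 and Ugt3a2 at -0.32 ± 0.07.

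Ugt2b38 (chr5:87409942-87424203, minus strand) went the other way, with a lowest, median and highest level of 0, 8.07 and 24.7 CPM in the pericentral zones of the 10 libraries, against 7.63, 54.4 and 101 CPM in the periportal zones. It differed by 2.68 ± 0.15 (SE; edgeR adjusted p = 1.16e-15) and was periportal in 10 of 10 libraries, although ZT6 B, at 7.63 CPM in its periportal zone, lay within the pericentral range. The pericentral 0 is ZT12 A, where no count allows up to 6.51 CPM. Ugt2b37 (chr5:87240493-87254804, minus strand) had a lowest, median and highest level of 1.55, 4.29 and 7.67 CPM in the pericentral zones of the 10 libraries, against 0, 6.07 and 14.3 CPM in the periportal zones; its difference of 0.97 ± 0.25 (SE; edgeR adjusted p = 0.00366) was seen in 7 of 10 libraries and lost its call without ZT12 B (0.75, adjusted p = 0.0562 by edgeR).

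The 8 Ugt2 genes lie within 534.4 kb on chromosome 5. In order, the first 4 were pericentral, Ugt2b5 was not called (-0.08 ± 0.06), Ugt2b37 was periportal, Ugt2a3 was not called (-0.07 ± 0.06) and Ugt2b38 was periportal. The next members on the chromosome, Sult1b1 and Sult1d1, were pericentral again.

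All 5 tested SULTs were called. Sult2a8 (chr7:14410686-14446769, minus strand) had a lowest, median and highest level of 937, 1121 and 1987 CPM in the pericentral zones of the 10 libraries, against 511, 591 and 690.3 CPM in the periportal zones. It differed by -0.89 ± 0.07 (SE; edgeR adjusted p = 1.11e-11) with no overlap between zones. Sult1d1 (chr5:87554645-87569027, minus strand), a sulfotransferase of catecholamines and other small phenols, had a lowest, median and highest level of 92.7, 142 and 464 CPM in the pericentral zones of the 10 libraries, against 46.7, 69.5 and 193 CPM in the periportal zones, and differed by -0.88 ± 0.09 (SE; edgeR adjusted p = 1.03e-09); Sult1b1 differed by -0.83 ± 0.10 (SE; edgeR adjusted p = 1.23e-07).

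Sult5a1 (chr8:123140192-123158315, minus strand) had a lowest, median and highest level of 0, 1.40 and 4.26 CPM in the pericentral zones of the 10 libraries, against 4.36, 12.02 and 21.3 CPM in the periportal zones. It was the member with the largest periportal difference, 2.71 ± 0.26 (SE; edgeR adjusted p = 2.98e-10), with no overlap of the listed values, but at a low level throughout; its 0 in ZT12 A allows up to 6.51 CPM, above its lowest periportal value. Sult1a1, the main phenol sulfotransferase, was also periportal, by 0.53 ± 0.07 (SE; edgeR adjusted p = 3.90e-07), in 10 of 10 libraries.

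**Figure D3:**
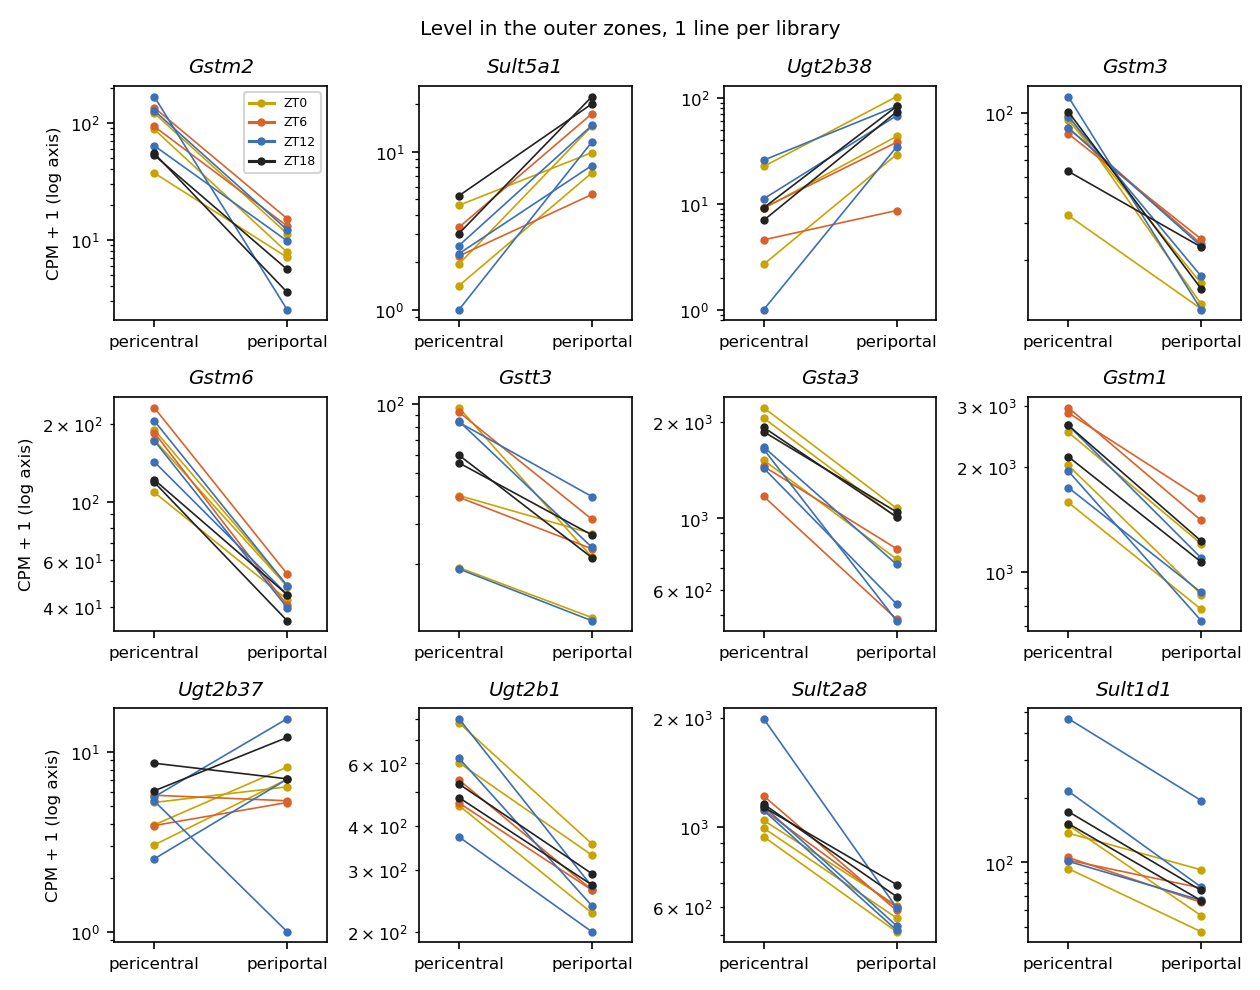
CPM plus 1, on log axes, in the pericentral and periportal zone of each library (1 line each, coloured by time) for the 12 called members with the largest zone difference. The lines fall in all 10 libraries for the 9 pericentral genes and rise in all 10 for Sult5a1 and Ugt2b38, while those of Ugt2b37 cross.

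Across 8 layers, 17 of the 18 pericentral members had their highest mean in layer 1 and 16 their lowest in layer 8. The 18 were called from the outer parts of the same cell order, so these counts describe the calls and are not a separate test. Matching layer counts over all genes were not made. The mean level in layer 1 over that in layer 8 was 26.6-fold for Gstm2, 9.18-fold for Gstm3, 5.76-fold for Gstm6, 3.16-fold for Gstt3 and 2.17-fold for Mgst1. Gstm2 averaged 158 CPM in layer 1, 66.5 in layer 2, 22.2 in layer 4 and 5.94 in layer 8, so its level had dropped steeply by the middle of the order. In the opposite direction, layer 8 over layer 1 was 16.2-fold for Sult5a1 and 8.31-fold for Ugt2b38. Ugt2b37 was not monotonic, with 5.78 CPM in layer 1, 2.92 in layer 3 and 7.52 in layer 7.

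**Figure D4:**
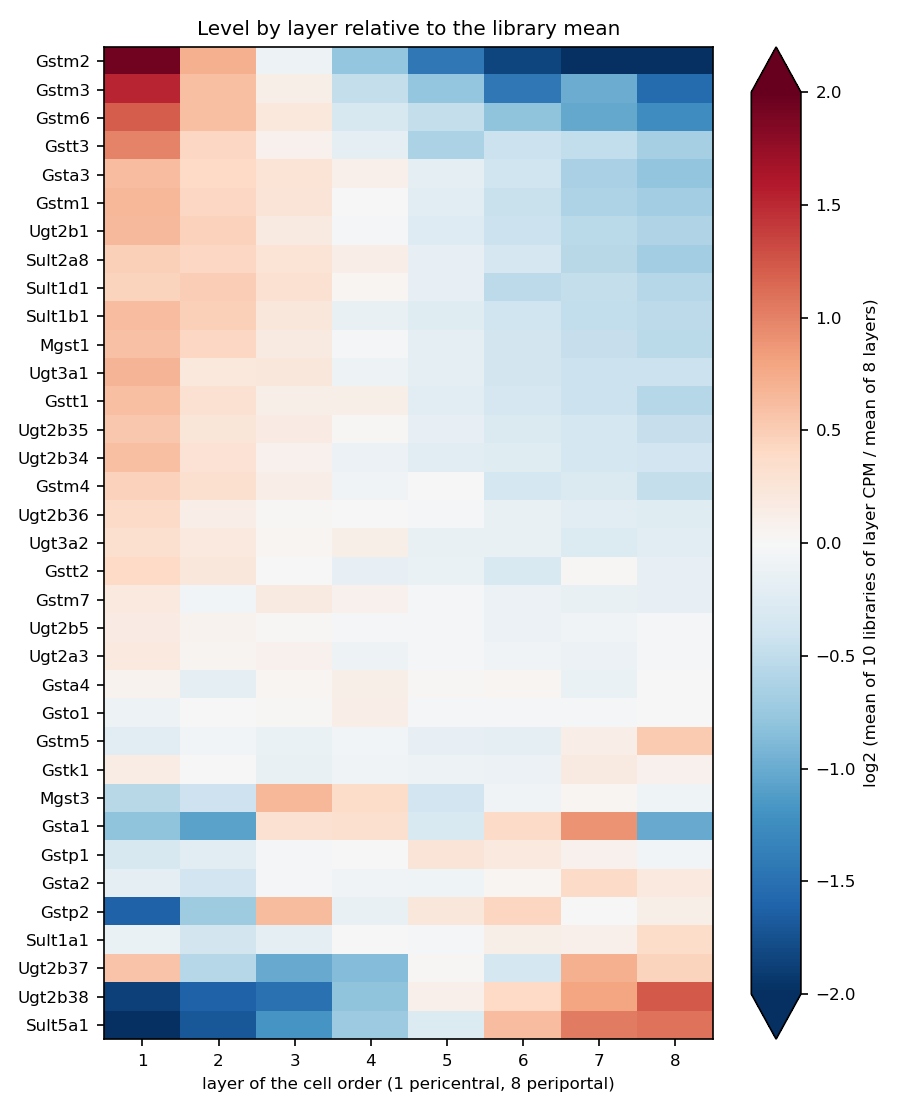
Mean level of the 35 tested members in 8 equal layers of the cell order, as log2 of the level relative to the mean of the 8 layers, averaged over 10 libraries; rows run from the most pericentral to the most periportal member. Gstm2 spans the most, from 3.81 times the mean of the 8 layers in layer 1 to 0.149 times in layer 8. Colours are capped at 2 in either direction.

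No member passed the tests of time. For a 24-h rhythm, 0 of 35 were called (edgeR, adjusted p under 0.05), where 5.14% of 8908 genes were; 7 members had an unadjusted p under 0.05, as 20.4% of all genes did, and DESeq2 called 1 member among 792 genes. Between ZT12 and ZT0 0 members were called by edgeR, with 3.44% of genes called, 4 members at an unadjusted p under 0.05 (15.5% of all genes) and 0 by DESeq2, which called 366 genes. Between ZT18 and ZT6 0 members were called by edgeR, with 3.79% of genes called, 11 members at an unadjusted p under 0.05 (19.6% of all genes) and 1 by DESeq2, which called 373 genes. In bulk sums a lower level in each cell and fewer cells with a high level cannot be told apart. The clock output factor Dbp, in the same libraries, differed by 5.34 on the log2 scale between ZT12 and ZT0 (edgeR adjusted p = 4.86e-07).

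The ZT0 and ZT12 libraries of the same letter shared an index column and deviated together, and with the letter as a replicate block the counts rose: 3 members were rhythmic (Gstm2, Gstp1 and Ugt2b35, adjusted p = 0.0327, 0.0461 and 0.0346 by edgeR), 0 differed between ZT12 and ZT0 and 6 differed between ZT18 and ZT6 (Gstm2, Gstm4, Gstp1, Gstt2, Sult5a1 and Ugt2b35). The same block called 8.41%, 5.66% and 8.19% of all genes. The letters of the ZT6 and ZT18 libraries share neither an index column nor their deviations, so that block has no support as a pairing for the 6 ZT18 to ZT6 differences, which all compare index column 4 with column 7. With the index column itself as a block, 1 member was rhythmic, Ugt2b35 (amplitude 0.60, adjusted p = 0.0298 by edgeR), while the amplitude of Gstm2 was 0.20 instead of 0.60 (adjusted p = 0.573) and that of Gstp1 0.96 instead of 1.52 (adjusted p = 0.402). Summed erythroid markers were 99.0 to 360.5 CPM at ZT18 against 76.5 to 87.8 CPM at ZT6. In every library but ZT18 B this sum was mostly Alas2. Alas2 was at 90.2 CPM in ZT18 A and 67.4 in ZT18 B, against 84.1 and 74.2 in ZT6 A and B. Only ZT18 B was rich in globin RNA. The cholangiocyte list, nearly all of it Sox9, was at 11.6 to 17.3 CPM at ZT18 against 0.773 to 4.27 CPM at ZT6. The part of these markers in the differences was not tested.

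Gstp1 had the largest fitted amplitude, with 310.3, 209.9 and 37.5 CPM in the ZT0 libraries A to C, 368 and 403 in those of ZT6, 33.00, 191 and 71.8 in those of ZT12, and 62.9 and 39.6 in those of ZT18. The amplitude was 1.52 on the log2 scale (edgeR adjusted p = 0.0808) and its ZT18 to ZT6 difference -2.84 ± 0.84 (adjusted p = 0.0787). The 3 ZT0 libraries alone spanned 37.5 to 310.3 CPM. All 4 libraries of index column 7 (ZT0 B, ZT6 A, ZT6 B and ZT12 B) were above 190 CPM; of the others only ZT0 A was. The adjusted p for the amplitude was 0.0132 without ZT0 C and 0.0479 without ZT12 B, by edgeR.

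Gstt2 came closest to a rhythm call, with 20.2, 15.6 and 17.9 CPM in the ZT0 libraries A to C, 26.8 and 56.02 in those of ZT6, 33.7, 28.4 and 23.1 in those of ZT12, and 13.5 and 17.8 in those of ZT18 (amplitude 0.72, edgeR adjusted p = 0.064). Gstm2 was at 17.8, 37.01 and 58.6 CPM in the ZT0 libraries A to C, 43.5 and 58.3 in those of ZT6, 29.6, 52.3 and 60.2 in those of ZT12, and 21.4 and 20.7 in those of ZT18. Ugt2b35 was at 173, 133 and 201 CPM in the ZT0 libraries A to C, 257 and 226 in those of ZT6, 329, 198 and 292 in those of ZT12, and 149 and 117 in those of ZT18. For each of the 3 genes both ZT6 libraries exceeded both ZT18 libraries, but Gstt2 in ZT6 A lay below Gstt2 in ZT12 A and B. Without ZT6 B the amplitude of Gstt2 was 0.43 (edgeR adjusted p = 0.26) and its ZT18 to ZT6 difference -0.64 instead of -1.31; without ZT6 A the amplitude was 0.88 (adjusted p = 0.0355). Without both ZT18 libraries the amplitude of Gstm2 was 0.28 and that of Ugt2b35 0.31.

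**Figure D5:**
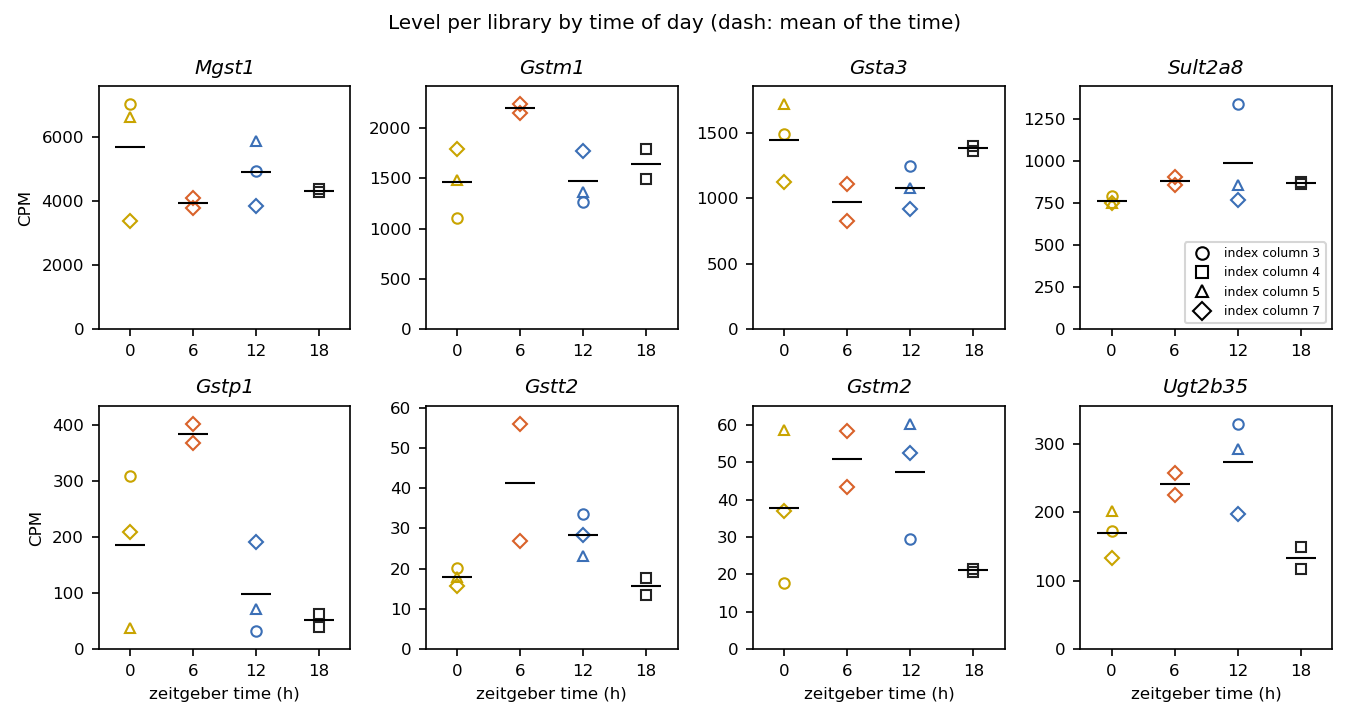
CPM of 8 members in each library against zeitgeber time, with the symbol showing the 10x index column and a dash the mean of the time; axes start at 0. Gstp1 ranges from 33.0 CPM in ZT12 A to 402.9 CPM in ZT6 B, and the 3 ZT0 libraries of Gstp1 alone span 37.5 to 310.3 CPM.

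The remaining strongly zonated members varied by library without a call. Gstm3 was at 19.4, 43.99 and 46.8 CPM in the ZT0 libraries A to C, 46.1 and 48.3 in those of ZT6, 46.7, 44.4 and 52.7 in those of ZT12, and 47.2 and 32.3 in those of ZT18. Gstm6 was at 68.6, 97.8 and 118 CPM in the ZT0 libraries A to C, 102 and 129 in those of ZT6, 96.2, 80.6 and 110.4 in those of ZT12, and 70.7 and 64.7 in those of ZT18. Gstt3 was at 12.7, 32.3 and 52.7 CPM in the ZT0 libraries A to C, 30.3 and 55.2 in those of ZT6, 56.4, 12.6 and 48.7 in those of ZT12, and 35.5 and 35.6 in those of ZT18. ZT0 A was the lowest library for Gstm3, and Gstt3 was as low in ZT0 A as in ZT12 B, so low values were not tied to 1 time.

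Ugt2b1 was at 434, 325 and 579 CPM in the ZT0 libraries A to C, 351 and 373 in those of ZT6, 412, 269 and 512 in those of ZT12, and 376 and 351 in those of ZT18. Sult1d1 was at 107, 66.6 and 104 CPM in the ZT0 libraries A to C, 87.4 and 83.8 in those of ZT6, 316, 80.9 and 136 in those of ZT12, and 99.3 and 120.4 in those of ZT18, with ZT12 A alone above all the rest. Neither gene separated the times.

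The members with the largest periportal differences, Sult5a1, Ugt2b38 and Ugt2b37, were not called by time with all 10 libraries. Ugt2b38 was at 59.5, 13.8 and 19.9 CPM in the ZT0 libraries A to C, 18.1 and 8.50 in those of ZT6, 14.4, 37.2 and 44.2 in those of ZT12, and 50.3 and 38.3 in those of ZT18. Ugt2b37 was at 4.89, 4.01 and 4.22 CPM in the ZT0 libraries A to C, 3.45 and 4.25 in those of ZT6, 2.06, 8.82 and 2.51 in those of ZT12, and 9.12 and 6.20 in those of ZT18. Sult5a1 was at 6.11, 3.86 and 5.06 CPM in the ZT0 libraries A to C, 8.53 and 1.93 in those of ZT6, 4.81, 4.48 and 5.02 in those of ZT12, and 14.1 and 11.9 in those of ZT18, the ZT18 libraries being its highest pair; its fitted amplitude was 0.70 (edgeR adjusted p = 0.257), and without ZT6 A it was 1.44 (adjusted p = 0.00568), with a ZT18 to ZT6 difference of 2.75 instead of 1.26. The amplitude of Ugt2b38 was 0.87 (edgeR adjusted p = 0.278), and 0.99 without ZT0 A (adjusted p = 0.0293). Ugt2b38 was highest in ZT0 A and Ugt2b37 in ZT18 A.

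Zonation did not detectably depend on time. In the test of a zone-dependent rhythm 0 of 35 members were called by edgeR (0.0337% of all genes), 3 had an unadjusted p under 0.05, against 6.2% of all genes, and DESeq2 called 0; the lowest adjusted p was 0.423, for Gstp1. Gstm2, for example, had a mean zone difference on the log2(CPM + 1) scale of -3.11, -2.99, -4.05 and -3.60 at the 4 times in order. A missed threshold does not show that the gradients are equal at all times.

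Genes around the conjugation step were read from 4 lists; over all genes tested, 13.1% were pericentral, 11.5% periportal, 5.14% rhythmic, 3.44% different between ZT12 and ZT0 and 3.79% between ZT18 and ZT6. Of 13 tested genes that supply cosubstrates, 5 were pericentral and 1 periportal: Ugdh, which makes UDP-glucuronic acid, differed by -0.81 ± 0.07, Papss2, which makes PAPS, by -0.55 ± 0.07, and Gss, the last step of glutathione synthesis, by 0.71 ± 0.10. By time, 1 of these 13 was rhythmic, Papss1 (amplitude 0.70), and 2 differed between ZT12 and ZT0: Ugp2 by 1.101 and Papss1 by -1.06.

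Of 15 other conjugating or hydrolysing enzymes, 2 were pericentral and 5 periportal, among them Nnmt, which methylates nicotinamide, at 1.47 ± 0.10, and Hnmt, which methylates histamine, at 0.86 ± 0.14. Baat, which joins bile acids to taurine or glycine, was the 1 rhythmic gene and the 1 that differed between ZT18 and ZT6, by 1.09.

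Among 15 regulators, 5 were pericentral and 1 periportal. Ahr, the dioxin receptor, differed by -2.40 ± 0.13 and Nr1i3, the xenobiotic receptor CAR, by -1.86 ± 0.09. The 3 rhythmic regulators were the clock output factors Dbp, Tef and Hlf, at amplitudes of 3.24, 1.39 and 0.46. Of 6 export transporters, 4 were pericentral and 1 periportal: Abcc3 of the sinusoidal membrane differed by -0.89 ± 0.08, and Abcb11, the bile salt pump, by 0.38 ± 0.07. Abcc2 and Abcb4 were rhythmic at amplitudes of 0.65 and 0.66.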

How the data were processed

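Single hepatocyte RNA was counted in 10 libraries made with the 10x Chromium 3′ kit v2, per the labels' protocols. Per the submitters' processing notes Cell Ranger was used, and the builds mm10 and hg19 are named; which files each build served, and the tool's version, are not given in the sources used here. The deposited values are raw UMI counts per gene and cell, as the whole numbers in the tables show; all 18378 deposited cells were used, each with 1048 to 10001 UMIs and at most 35% mitochondrially encoded UMIs, and no doublet caller was run. Groups came from the sample titles. Counts were summed per library, or per library and zone, and scaled to CPM for display.

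Tests were edgeR 4.0.16 quasi-likelihood fits in R 4.3.3 with TMM scaling, keeping genes whose mean CPM reached 3, adjusted by Benjamini-Hochberg over all genes tested at a threshold of 0.05. Rhythm was a test of cosine and sine of 24 h over all 10 libraries; the antiphase pairs were contrasts in a model with 1 mean per time; the zone tests used 20 sums with library as a block. DESeq2 1.42.0, other filters and scalings, other zone cuts and each library left out were the alternatives. The zone score used log values per 10000 UMIs, standardised within each library.

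ZT0 and ZT12 libraries of the same letter deviated together from their group means (r = 0.238, 0.416 and 0.465 for A, B and C), and their index names share a column (3, 7 and 5), though the labels do not call the letter or column a batch. ZT6 libraries (column 7) and ZT18 libraries (column 4) did neither (r = 0.0205). With 2 libraries per time the deviations of A and B mirror each other, so this r is a single value for both letters. Replicates differed by more than counting noise (chi-square per degree of freedom 5.76 to 68.8). Members and lists were chosen with earlier results of these data known. Values are given for called members with the largest change, at most 12 per test, for the 5 most abundant, and for at most 3 genes per related list and test; Gstp1, Gstt2, Ugt2b35 and the uncalled members shown were chosen after their values were seen. Library totals of 1454623 to 7144803 UMIs set the precision; low genes rest on few UMIs.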

Additional observations from a re-analysis of the deposited data

How the results depend on the processing

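Zonation held over the alternatives run: 21 to 25 members differed between zones in 22 settings, and none of the 23 calls reversed. All-gene zone calls in these settings ran from 1203 (cells with at least 3000 UMIs) to 2487 (library size alone), against 2195 in the reported setting. Sult5a1 and Ugt2b37 fell below the filter at a mean of 20 CPM and were not tested there. In the settings that tested them, Gstp1 lost its call without the top 5% of cells and Ugt2b37 without ZT12 B, and the other 21 kept theirs. Scaling by library size alone moved the median of all genes to -0.10 and that of the members to -0.41, with 20 pericentral and 5 periportal members; the periportal share of all calls was then 27.4%, against 46.8% with TMM. With cells of at least 3000 UMIs the uncalled Ugt2a3 and Ugt2b5 changed sign, to 0.0159 and 0.173.

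Counts of members by time moved more, from 0, and counts over all genes moved too. All-gene rhythm calls were 458 as reported above, 792 with DESeq2 and 623 with an index column block. They were 420 with library size alone, 710 with no filter and 749 with the replicate block. All-gene ZT12 to ZT0 calls were 306, and 767 with the index column block. All-gene ZT18 to ZT6 calls were 338, 373 with DESeq2, 301 with library size alone, 595 with no filter and 730 with the replicate block. Rhythmic members numbered 1 with DESeq2, 1 with an index column block and 1 with library size alone. They numbered 2 with no filter, 3 with the replicate block and 0 or 1 with 1 ZT0 or ZT12 library left out. Between ZT12 and ZT0, 1 member was called with the index column block (Ugt2b35). Between ZT18 and ZT6 there were 1 with DESeq2, 1 with library size alone, 5 with no filter and 6 with the replicate block. Without ZT0 A there were 2, and without ZT0 C, ZT12 A or ZT12 B there was 1. All-gene calls were then 494, 360, 372 and 381, in that order. Without ZT0 B or ZT12 C there were 0 members, with 367 and 335 genes called. For rhythm, 1 member was called without ZT0 A, ZT0 C or ZT12 B, with 465, 453 and 301 genes called. Leaving out a ZT6 or ZT18 library left 1 library at that time, so those counts are not given here. A zone-dependent rhythm was called for 1 member with no filter, a setting that called 43 of all genes against 3 as reported above. The phase of Sult5a1 moved to the opposite side of the day with the index column block (amplitude 0.45) and without both ZT18 libraries (0.23). The cause was not tested. The zone test was not run with the replicate block. With that block 0 members had a zone-dependent rhythm, and 32 of all genes did, against 3 as reported above.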
